A study of Mus musculus with 18 samples.

Results

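Splenic lymphomas rich in neutrophil transcripts were compared with lymphomas poor in them. The 12 tumours came from a series of 18, and they were chosen by a measured value, the mean log2 level of the neutrophil genes S100a8, S100a9, Ngp, Camp and Ltf in each tumour, here called the neutrophil score. The 6 tumours of highest score are called neutrophil rich and the 6 of lowest score neutrophil poor, with Prdm11 genotypes pooled, and the 6 tumours in between were left out of the main comparison. Because the score came from the same arrays, its 5 genes are described without a test, and the remaining 19933 genes were compared. Other neutrophil genes may be transcripts of the same cells, so their differences are read as a description of what was chosen. From which cells they came was not tested.

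All 18 mice were C57BL/6 by background and had the Eμ-Myc transgene, whose immunoglobulin heavy chain enhancer directs Myc expression to B lineage cells. In 9 of them Prdm11, which encodes a PR domain protein, was wild type (WT), and in 9 it was knocked out (KO), and no mouse received a treatment. Each tumour came from a separate mouse at end stage, was frozen whole and was homogenised with no sorting of cells stated, so that every array holds tumour cells together with the other cells of a spleen. The rich group held 4 WT and 2 KO tumours and the poor group 2 WT and 4 KO tumours. The labels name neither age nor sex. Tumours are named by genotype and by the number in their label.

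Neutrophils are short-lived phagocytes that are made in bone marrow and, in mice, also in the spleen. As a precursor matures it fills its granules in waves. Primary granules with myeloperoxidase and serine proteases are made first, secondary granules with lactoferrin, cathelicidin and lipocalin 2 follow, and tertiary granules with gelatinase, together with surface receptors for chemokines and bacterial products, come last. S100a8 and S100a9 form calprotectin, the most abundant cytosolic protein complex of the mature cell. In whole tissue, fewer cells of a type and less RNA per cell cannot be told apart, and this holds for every cell type named here.

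The promoters of some secondary granule genes are shown because C/EBP factors, above all C/EBPε, are known to drive this gene programme. Whether these factors acted on the genes in these tumours was not tested. The sequences are RefSeq windows on GRCm38.p6 from 250 bases before to 50 bases after the annotated start, with matches to the C/EBP-type motif TTGCNNAA on either strand in capitals. Ngp lies at chr9:110419558-110419857 on the plus strand, Ltf at chr9:111019042-111019341 on the plus strand, Camp at chr9:109849407-109849706 on the minus strand, Lcn2 at chr2:32387690-32387989 on the minus strand and Mmp8 at chr9:7558179-7558478 on the plus strand. Ngp, Ltf and Camp were score genes, and Lcn2 and Mmp8 were called outside the score. The match began 75 bases before the start in Ltf, 216 before it in Lcn2 and 19 before it in Mmp8, and Ngp held 2 matches.
Ngp: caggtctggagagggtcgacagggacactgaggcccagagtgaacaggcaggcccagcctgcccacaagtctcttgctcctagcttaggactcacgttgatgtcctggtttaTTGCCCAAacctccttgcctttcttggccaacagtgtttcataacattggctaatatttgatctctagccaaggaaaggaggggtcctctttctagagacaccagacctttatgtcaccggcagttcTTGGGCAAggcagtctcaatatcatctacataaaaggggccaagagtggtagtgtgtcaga
Ltf: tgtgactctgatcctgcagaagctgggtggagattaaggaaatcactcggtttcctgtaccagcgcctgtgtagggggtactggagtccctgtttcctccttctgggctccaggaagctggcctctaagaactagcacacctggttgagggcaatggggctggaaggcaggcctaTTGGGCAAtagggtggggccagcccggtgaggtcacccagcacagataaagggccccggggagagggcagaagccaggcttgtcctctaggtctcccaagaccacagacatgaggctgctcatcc
Camp: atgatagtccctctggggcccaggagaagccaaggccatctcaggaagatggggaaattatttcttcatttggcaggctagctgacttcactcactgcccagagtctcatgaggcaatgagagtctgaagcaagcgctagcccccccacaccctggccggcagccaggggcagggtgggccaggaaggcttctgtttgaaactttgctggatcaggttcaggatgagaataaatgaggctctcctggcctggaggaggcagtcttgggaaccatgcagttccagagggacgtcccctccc
Lcn2: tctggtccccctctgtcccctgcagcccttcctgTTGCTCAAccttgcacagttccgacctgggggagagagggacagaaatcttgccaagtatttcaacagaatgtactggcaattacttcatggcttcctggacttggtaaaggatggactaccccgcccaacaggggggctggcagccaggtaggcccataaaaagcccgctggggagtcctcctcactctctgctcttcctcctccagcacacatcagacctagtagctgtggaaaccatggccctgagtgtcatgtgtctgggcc
Mmp8: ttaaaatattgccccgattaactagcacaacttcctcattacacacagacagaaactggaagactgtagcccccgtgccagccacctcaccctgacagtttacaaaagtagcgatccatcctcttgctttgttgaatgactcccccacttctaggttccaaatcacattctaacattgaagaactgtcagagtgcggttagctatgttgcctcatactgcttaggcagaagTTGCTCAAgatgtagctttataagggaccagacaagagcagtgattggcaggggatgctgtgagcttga

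A match was found in 3 of the 5 score genes, and these letters were not in the windows of Camp and S100a8. Among the 24 called members of the neutrophil lists described below, 21 had a window and 11 of these held a match (52.4%). Of called secondary and tertiary granule genes not shown, Anxa1 held a match, and Chil3 and Pglyrp1 held no match. Of the called primary granule genes Ms4a3 held a match, 41 bases after the start. Mpo, Elane, Prtn3 and Ctsg held no match. Pilra and Pilrb1 were counted apart and held the same matching letters. The share with a match was 10.8% over all 32851 windows of the table and 11.2% over the 15609 tested genes with a window. It was 9.15% (43 of 470) for called genes outside the neutrophil lists. Genes with several windows counted as a match if any window held one. A match is a run of letters and no evidence of binding.

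Across the 18 tumours the score ran from 10.60 in WT 4 to 7.62 in WT 2, with no wide gap at either boundary. The last tumour inside the rich group, WT 7, had a score of 9.58, and the first outside it, KO 8, had 9.32. At the other boundary KO 7, inside the poor group, had 8.62, and WT 6, outside it, had 8.70. The score genes tracked one another across the 18 tumours, with Pearson correlations from 0.666 (S100a8 with Ngp) to 0.945 (S100a9 with Camp), and the points share arrays and normalization.

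The score genes differed in how far apart the groups stood. S100a8 had log2 levels of 12.02, 12.28 and 12.55 (lowest, median and highest) in rich tumours and 9.62, 10.55 and 11.16 in poor tumours, a difference of 1.83 or 3.55-fold. S100a9 ran over 12.20, 12.55 and 12.77 against 10.24, 10.84 and 11.55, a 3.12-fold difference. These calprotectin genes were among the brightest on the array even in the poor tumours, with mean levels over 18 tumours at the 99.2 and 99.5 percentile of genes. Camp, which encodes the antimicrobial peptide precursor cathelicidin, ran over 9.65, 10.51 and 10.86 against 6.38, 7.46 and 7.90, an 8.48-fold difference. Ngp, neutrophilic granule protein, ran over 7.48, 8.29 and 9.24 against 5.005, 6.43 and 7.08, a 4.12-fold difference. Ltf, which encodes lactoferrin, ran over 6.34, 7.10 and 7.71 against 5.05, 5.57 and 6.37, a 2.81-fold difference. The groups did not overlap in S100a8, S100a9, Ngp or Camp, and in Ltf the poor tumour KO 3 lay just above the rich tumour WT 7.

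**Figure D1:**
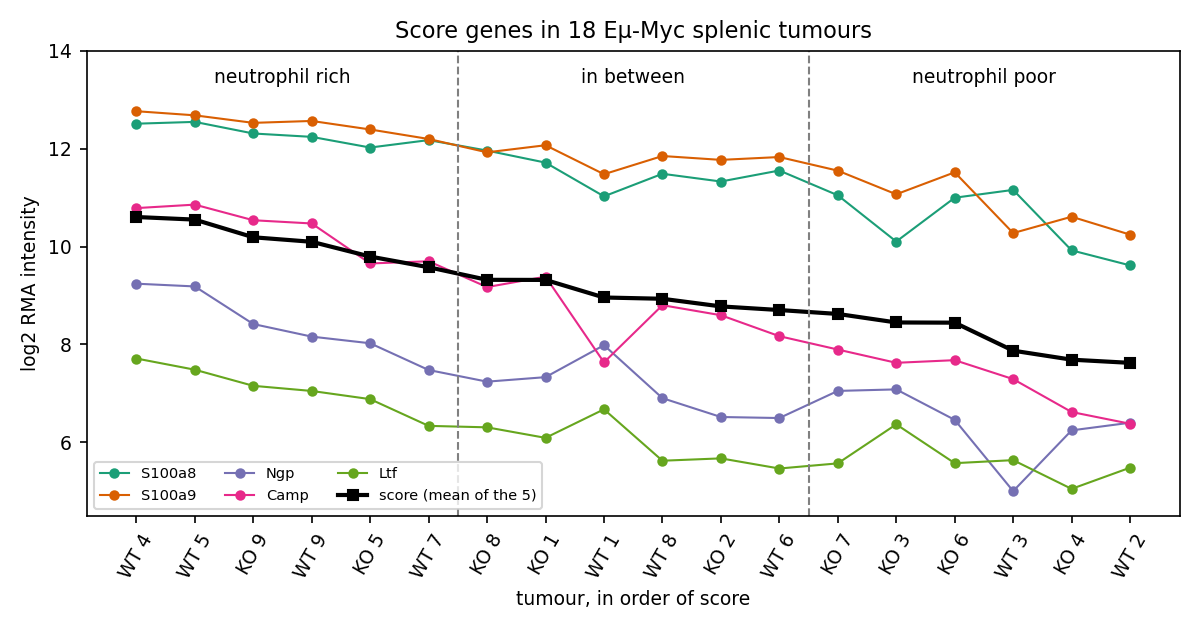
Log2 RMA intensity of the 5 score genes (coloured lines) and their mean (black squares) in each of 18 tumours, placed in order of score on the horizontal axis, with dashed lines at the group boundaries. The score falls gradually from 10.60 to 7.62. WT 1 stands out with higher Ngp and Ltf than its neighbours, and KO 3 with higher Ltf.

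Before the other results, 2 arrays need mention. WT 3 and KO 4, both in the poor group, had the lowest median correlations with the other arrays, 0.924 and 0.957, against 0.959 to 0.976 for the rest. Array median intensities were 35.31 to 38.55 in rich and 37.77 to 41.65 in poor tumours. The Prdm11 probe set gave 4.84 to 5.66 in WT and 4.87 to 5.49 in KO tumours, which overlap. Whether that probe set covers the deleted part is unknown here, so the genotype labels are unchecked.

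Outside the score, 584 genes were higher in neutrophil-rich tumours, 2.93% of those tested, and 36 were lower, 0.181% (limma, Benjamini-Hochberg adjusted p below 0.05). The median difference was 0.91 on the log2 scale among the higher and -0.56 among the lower genes, against -0.06 over all genes. Of the higher genes 216 differed at least 2-fold and 10 at least 4-fold. Of those 10, 8 stood in a neutrophil list, and the other two were Rgs18, a regulator of G protein signalling in blood cells, and the unannotated F630028O10Rik. All 6 rich tumours lay above all 6 poor tumours in 305 genes (1.53%) and below them in 107 (0.537%). Quantile normalization gave 331 higher and 121 lower genes, so that the split between directions depends on scaling.

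The counts depended on single tumours. Leaving out 1 tumour at a time gave from 110 to 965 higher genes. It gave 110 without KO 9, 124 without WT 9, 132 without KO 3, 159 without KO 4, 215 without WT 5, 284 without WT 2, 365 without KO 5 and 965 without KO 7. In every one of the 12 refits 100 of the 584 higher genes and 1 of the 36 lower genes remained past the threshold. The 9 highest against the 9 lowest tumours gave 0 called genes (509 higher and 574 lower at an unadjusted p below 0.05). So did WT tumours alone (4 rich and 2 poor; 1392 higher and 498 lower unadjusted) and KO tumours alone (2 rich and 4 poor; 1580 and 941). With genotype as a covariate 578 higher genes were called, 464 of them shared with the 584.

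Neutrophil genes outside the score described the same contrast in more detail. Of 56 tested genes in 4 neutrophil lists, 24 were called higher (42.9%, against 2.93% of all genes tested) and 0 lower, with a median difference of 0.97. A positive difference was found in 52 of the 56, against 7602 of all 19933 genes tested. Leaving out KO 9, WT 9 or KO 3 left 12 of the 56 called, KO 4 13, WT 5 15 and WT 2 16, and without both WT 3 and KO 4 there were 16, with a median of 0.84. Of these 56 genes, 9 were listed as neutrophil markers outside the score, had no part in choosing the groups and were divided. Lcn2, Ly6g, Mmp8, Retnlg, Mpo and Elane were among the 24 called, and Mmp9, Cxcr2 and Csf3r among those not called.

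Primary granule genes were higher in 5 of 12 tested members, with a list median of 1.01. Ms4a3, a membrane protein of granulocyte progenitors, had levels of 6.04, 8.36 and 8.72 in rich and 5.01, 5.10 and 5.71 in poor tumours. Its difference was 2.53 (SE 0.40; 5.77-fold; adjusted p = 0.00962), and the groups did not overlap. Ctsg, cathepsin G, ran over 5.90, 7.24 and 7.73 against 4.72, 4.92 and 5.25, a 4.12-fold difference (adjusted p = 0.00879). Mpo, which makes hypochlorous acid in the phagosome, ran over 6.54, 7.42 and 7.94 against 5.58, 5.91 and 6.30 (2.55-fold; adjusted p = 0.00962). For Ctsg and Mpo as well, every rich tumour lay above every poor tumour. The proteases Prtn3 (difference 1.03) and Elane (0.99) were also higher, and Elane lost its call without KO 9, WT 9, KO 3 or KO 4, with adjusted p up to 0.0627.

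Within the rich group some called granule genes followed the score. Ms4a3 stood at 8.28 to 8.72 in WT 4, WT 5, KO 9 and WT 9 and at 6.61 and 6.04 in KO 5 and WT 7. In Ctsg, and in Chil3 of the secondary and tertiary granule list, KO 5 and WT 7 were also the lowest of the 6. These tumours had the lowest scores of the rich group as well, 9.80 and 9.58 against 10.10 to 10.60. The split thus repeats the ranking that chose the group.

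Secondary and tertiary granule genes were higher in 6 of 16 tested members, with a list median of 0.43. Chil3, a chitinase-like lectin of myeloid cells, had levels of 6.42, 8.60 and 9.02 in rich and 4.63, 5.33 and 5.70 in poor tumours, a difference of 2.93 (SE 0.37; 7.62-fold; adjusted p = 0.00879). Lcn2, lipocalin 2, which binds bacterial iron carriers, ran over 7.23, 8.02 and 8.95 against 5.17, 5.91 and 6.57 (difference 2.18, SE 0.32; adjusted p = 0.00879). The groups did not overlap in either gene. Among the tumours in between, Lcn2 reached 7.97 in WT 1, inside the rich range, and was 5.64 in KO 8. Mmp8, neutrophil collagenase, ran over 5.23, 5.84 and 6.95 against 4.14, 4.34 and 4.62 (3.12-fold; adjusted p = 0.0109).

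Anxa1 (annexin A1, difference 1.80), Pglyrp1 (a peptidoglycan recognition protein, 1.65) and Hp (haptoglobin, 1.01) completed the called members. Pglyrp1 lost its call without WT 5, KO 9, WT 9, KO 3, KO 4 or WT 2, with adjusted p up to 0.0642. Tertiary granule and subset markers were near 0: the gelatinase gene Mmp9 differed by 0.14 (adjusted p = 0.603), Cd177 by 0.09 (adjusted p = 0.608) and Olfm4 by 0.08 (adjusted p = 0.801). Lyz2, the lysozyme of granulocytes and macrophages, had the large difference of 1.504 but an SE of 0.51 and was not called (adjusted p = 0.129).

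Cytosolic genes and stefins were higher in 6 of 9 tested members, with a list median of 1.49. Ifitm6, an interferon-induced transmembrane family member, had the largest difference of all genes tested. Its levels were 6.92, 8.77 and 9.54 in rich and 3.87, 5.12 and 6.78 in poor tumours, a difference of 3.20 (SE 0.49; 9.21-fold; adjusted p = 0.00962). The highest poor tumour, KO 6, lay just below the lowest rich tumour. Retnlg, a resistin-like protein of mouse neutrophils, ran over 8.59, 8.87 and 10.45 against 6.11, 6.89 and 7.09 (5.62-fold; adjusted p = 0.00879), and the 6 tumours in between, at 7.12 to 7.65, fell wholly between the groups.

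Stfa3, a stefin A protease inhibitor, had levels of 4.55, 5.79 and 7.38 against 2.98, 3.62 and 5.19 and overlapped between groups (adjusted p = 0.0237). It belongs to a cluster of near-identical genes whose transcripts a probe set may share. Ly6g, the surface antigen used to sort mouse neutrophils, was called with a difference of 1.41 (adjusted p = 0.048), but lost its call on leaving out any of 10 of the 12 tumours, all but WT 7 and WT 3, with adjusted p up to 0.121. Wfdc21 (difference 1.49) and Mgst1 (1.57) were called as well. Mgst1 was lost without WT 5, KO 9, WT 9 or KO 3, Wfdc21 also without KO 4, and Stfa3 without KO 9, WT 9, KO 3, KO 4 or WT 2, each at adjusted p of at most 0.0659.

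Receptor genes were higher in 7 of 19 tested members, with a list median of 0.94. Trem3, an activating receptor of myeloid cells, had levels of 5.73, 7.51 and 8.24 in rich and 4.71, 4.92 and 5.47 in poor tumours, with no overlap (difference 2.26, SE 0.35; adjusted p = 0.00962). Clec4d and Clec4e, lectin receptors for mycobacterial glycolipid, differed by 1.34 and 0.98, Fcgr3, a low-affinity immunoglobulin receptor, by 1.23, Pilra and Pilrb1, paired immunoglobulin-like receptors, by 1.12 and 0.94, and Ceacam10 by 1.06. Of the 7, only Trem3 kept its call in all 12 refits that left out a tumour. With KO 9, WT 9, KO 3 or KO 4 left out, 1 receptor gene was called, with WT 5 or WT 2 left out 2, and with KO 6 left out 12 of the 19.

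Of the 12 receptor genes that were not called, 10 had a positive difference. Cxcr2, the chemokine receptor that releases neutrophils from marrow, had levels of 5.80, 6.28 and 7.89 against 4.55, 5.29 and 7.19, which overlap (difference 1.17, SE 0.45; adjusted p = 0.178). Csf3r, the receptor for granulocyte colony-stimulating factor, had 4.39, 4.65 and 5.002 against 4.33, 4.60 and 4.92 (difference 0.07; adjusted p = 0.825). In both groups Csf3r lay below 5.39, the median level of all genes tested, where a difference may be hard to see.

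**Figure D2:**
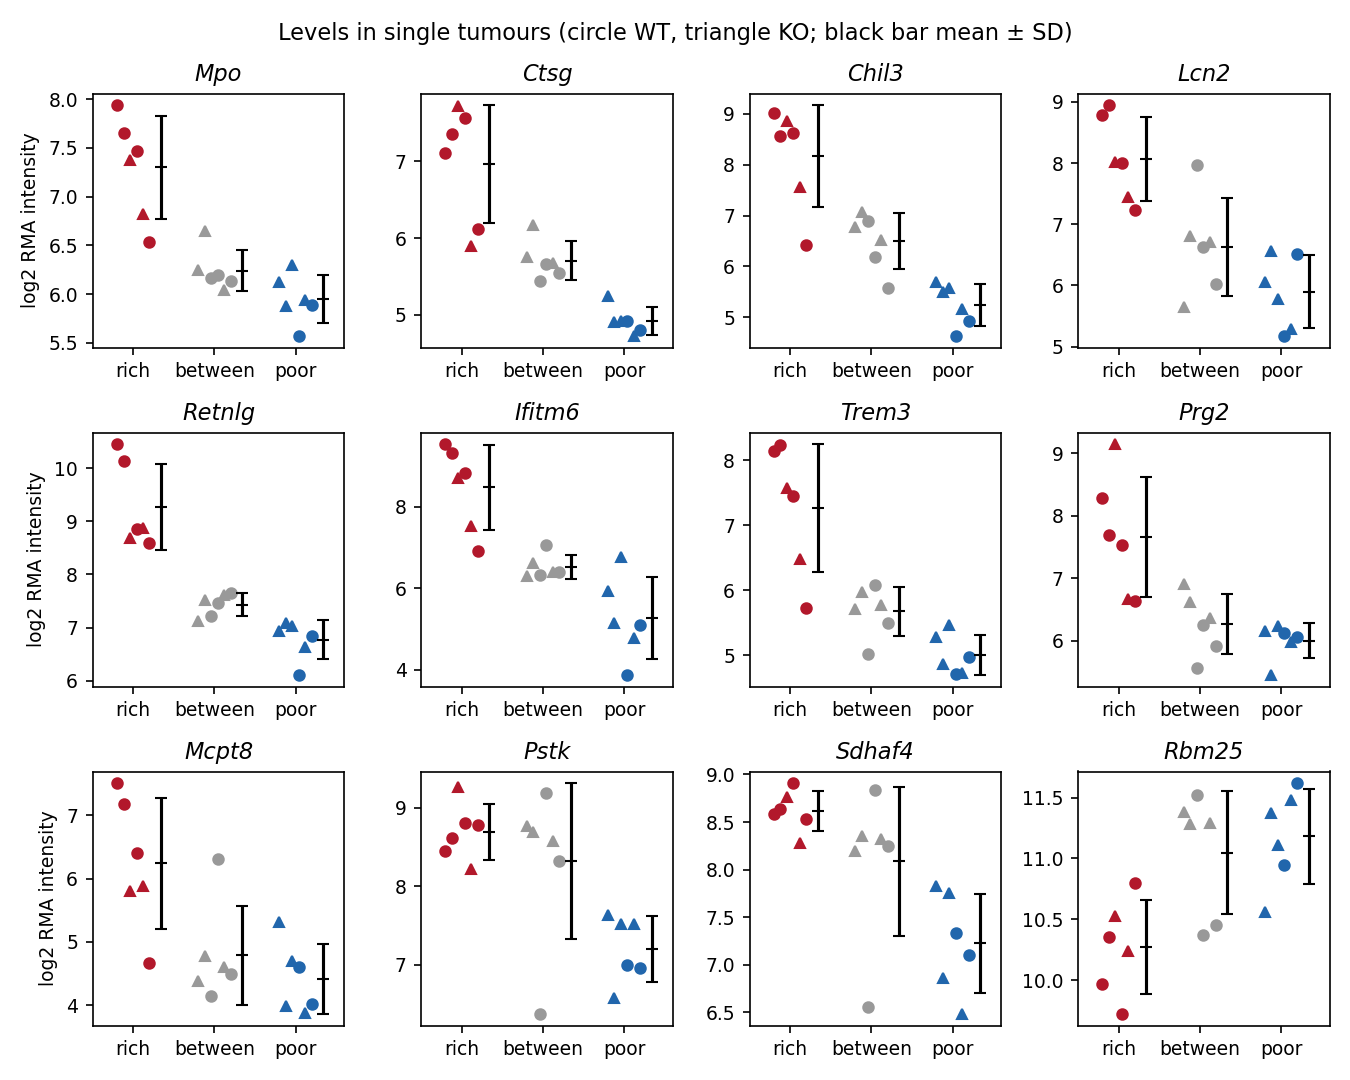
Log2 RMA intensity of 12 genes in single tumours of the rich, in-between and poor groups (circles WT, triangles KO), with the mean and SD over 6 tumours as a black bar and a separate vertical scale for each gene. Mpo, Ctsg and Chil3 are spread widely among rich tumours and compact among poor ones, whereas Pstk and Sdhaf4 leave most tumours in between at the rich level.

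Regulators and attractants of granulocytes gave no calls in the main fit of 12 tumours. Of 13 tested granulocyte transcription factors 0 were called (median -0.03): Cebpe, which drives secondary granule genes, had 5.42, 5.84 and 6.27 against 5.20, 5.64 and 6.04 (difference 0.20, SE 0.18; adjusted p = 0.576). Gfi1, a repressor needed for granulocyte maturation, differed by -0.04 (adjusted p = 0.876). Of 17 growth factor and chemoattractant genes 0 were called (median 0.00). Csf3, the granulocyte colony-stimulating factor, differed by -0.06 and the CXCR2 ligands Cxcl1 and Cxcl2 by -0.15 and 0.00. The signs of Gfi1, Csf3 and Cxcl2 changed with scaling or with 1 tumour left out. Cxcl5, another CXCR2 ligand, had the largest difference of the list, with 4.58, 4.88 and 5.39 against 3.93, 4.27 and 4.73 (difference 0.61, SE 0.17; adjusted p = 0.0641). Cxcl5 passed the threshold in 8 of 27 alternatives. Quantile normalization, median centring and leaving out WT 3 and KO 4 each gave 1 higher gene in this list. Mean levels stood at percentile 15.0 for Cxcl2, 27.1 for Cxcl5, 36.0 for Csf3 and 67.5 for Cxcl1, and at the low levels a difference may be hard to see.

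Retention and homing genes gave 0 calls of 11 (median -0.04). Cxcr4, which holds neutrophils in marrow and is also expressed by B cells, differed by 0.31 (adjusted p = 0.194). Of 5 NADPH oxidase genes 0 were called (median 0.04), and Cybb, the catalytic subunit, differed by 0.97 with an SE of 0.47. Myeloid and stem cell progenitor genes gave 0 of 11 (median -0.07). Leaving out 1 tumour gave 1 call in some of these lists: 1 growth factor or chemoattractant gene was higher without KO 5, KO 6 or WT 3, 1 NADPH oxidase gene was higher without KO 7 or KO 6 and another was lower without WT 3, and 1 retention gene was lower without WT 3.

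Other granulocytes showed single genes. Eosinophil genes were higher in 2 of 8 (median 0.27). Prg2, the eosinophil major basic protein, had levels of 6.62, 7.61 and 9.15 in rich and 5.45, 6.10 and 6.24 in poor tumours, with no overlap and KO 9 highest (difference 1.66, SE 0.35; adjusted p = 0.0224). It lost its call without WT 5, WT 9, KO 3 or KO 4, with adjusted p up to 0.0624. Ccr3, the eotaxin receptor, ran over 8.14, 8.49 and 8.89 against 6.71, 7.46 and 7.87 (2.13-fold; adjusted p = 0.0164), with no overlap, and lost its call under quantile normalization (adjusted p = 0.0568). Epx, the eosinophil peroxidase, differed by 0.04 (adjusted p = 0.927).

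Basophil and mast cell genes were higher in 1 of 12 (median 0.16). This was Mcpt8, a basophil protease, at 4.66, 6.15 and 7.51 against 3.88, 4.30 and 5.31 (difference 1.83, SE 0.40; adjusted p = 0.0261). The groups overlapped, WT 4 and WT 5 were highest, and the call was lost without WT 5, KO 9, WT 9, KO 3, KO 4 or WT 2, with adjusted p up to 0.0717. Fcer1a, a chain of the IgE receptor, differed by 1.005 and was not called (adjusted p = 0.0636).

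Among other cell types of the spleen few genes were called. Monocyte genes were higher in 1 of 13 (median 0.11), which was F13a1, coagulation factor XIII (difference 0.52; adjusted p = 0.029). It was lost without WT 4, WT 5, WT 9, WT 7, KO 3, KO 4 or WT 2, with adjusted p up to 0.0733. Macrophage genes gave 0 of 17 (median 0.29) and dendritic cell genes 0 of 12 (median -0.05). Spic, a transcription factor of red pulp macrophages, had 8.55, 8.73 and 9.26 against 6.93, 7.45 and 9.04 (difference 1.10; adjusted p = 0.0679). Megakaryocyte and platelet genes gave 0 of 11 (median 0.35), with Clec1b (difference 0.91; adjusted p = 0.0514) and Pf4 (1.02; adjusted p = 0.0784) nearest the threshold. Without KO 6, Spic, Clec1b and Pf4 were all called higher, as were Spic without KO 7 and Clec1b without WT 9. Erythroid genes gave 0 of 17 (median -0.11), with list means of 7.03 to 7.88 in rich and 6.42 to 8.31 in poor tumours.

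T cell genes gave 0 calls of 17 (median 0.10) and NK and cytotoxic genes 0 of 14 (median 0.66). Single tumours moved this as well: without KO 6 the NK list had 4 called genes and a median of 1.001 and the T cell list 1 and 0.39, whereas without WT 4 the NK median was 0.32 and without WT 5 0.40. Cd3d, a chain of the T cell receptor complex, ran from 6.68 to 10.63 in rich and from 3.995 to 10.13 in poor tumours, with WT 4, WT 5 and the poor tumour KO 6 all above 10. Its difference of 2.09 had an SE of 0.91 (adjusted p = 0.234). NK list means were 5.25 to 7.04 in rich and 4.73 to 6.78 in poor tumours. The NK median was 1.22 among WT tumours alone and -0.22 among KO tumours alone, and the T cell median 0.59 and -0.21, differences between genotypes that were not tested for the lists. With the T cell list mean as a covariate, 579 of the 584 higher genes were again called.

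B lineage genes, which tumour cells can share with normal cells of a spleen, gave no calls in the main fit of 12 tumours. The pan-B list had 0 of 14 (median -0.32), pro-B and pre-B 0 of 16 (median -0.17), mature B 0 of 11 (median 0.16), MHC class II 0 of 8 (median 0.14) and plasma cell 0 of 9 (median 0.10). Pan-B list means were 7.07 to 7.61 in rich and 6.90 to 7.95 in poor tumours. Spib, an ETS factor of B cells, had 4.87, 5.31 and 5.46 against 5.35, 5.96 and 6.43 (difference -0.66, SE 0.18; adjusted p = 0.0587). Pax5, the B lineage commitment factor, had 5.80, 6.33 and 6.76 against 6.43, 7.04 and 7.996 (difference -0.78, SE 0.25; adjusted p = 0.108). Cd79a, a chain of the B cell receptor, differed by -0.42 (adjusted p = 0.22). Without WT 3, 3 pan-B genes were called lower, Spib among them (difference -0.77; adjusted p = 0.0192), and the list median was -0.47. Without both WT 3 and KO 4 the median was -0.52 with 1 gene called lower, and quantile normalization also gave 1. Cd37, a mature B cell tetraspanin that differed by -0.49 (adjusted p = 0.0683), was called lower without WT 3 or KO 7 and under quantile normalization.

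Growth and stress programmes gave few calls. The counts of higher genes were 0 of 24 for ribosome biogenesis targets of MYC (median 0.05), 0 of 19 for mitosis (median -0.07), 1 of 20 for DNA replication (median -0.01) and 0 of 17 for glycolysis (median -0.11). The DNA replication gene was the primase subunit Prim1 (difference 0.83; adjusted p = 0.0357), lost when any of 9 tumours was left out (WT 4, WT 5, KO 9, WT 9, KO 5, KO 3, KO 6, KO 4 or WT 2), with adjusted p up to 0.0976. Endothelial and stromal genes gave 0 of 17 (median -0.13) and interferon-stimulated genes 0 of 18 (median 0.18). Inflammatory and acute phase genes gave 1 of 16 (median 0.18), again Hp. Mki67, a proliferation antigen, had 9.07, 9.38 and 9.62 against 9.14, 10.21 and 11.06 (difference -0.75; adjusted p = 0.189). With 1 tumour left out the counts in these growth and inflammatory lists ran from 0 to 2 higher genes for ribosome biogenesis (2 without KO 7), from 0 to 2 for DNA replication (2 without KO 7) and up to 3 for inflammatory genes (3 without KO 6).

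**Figure D3:**
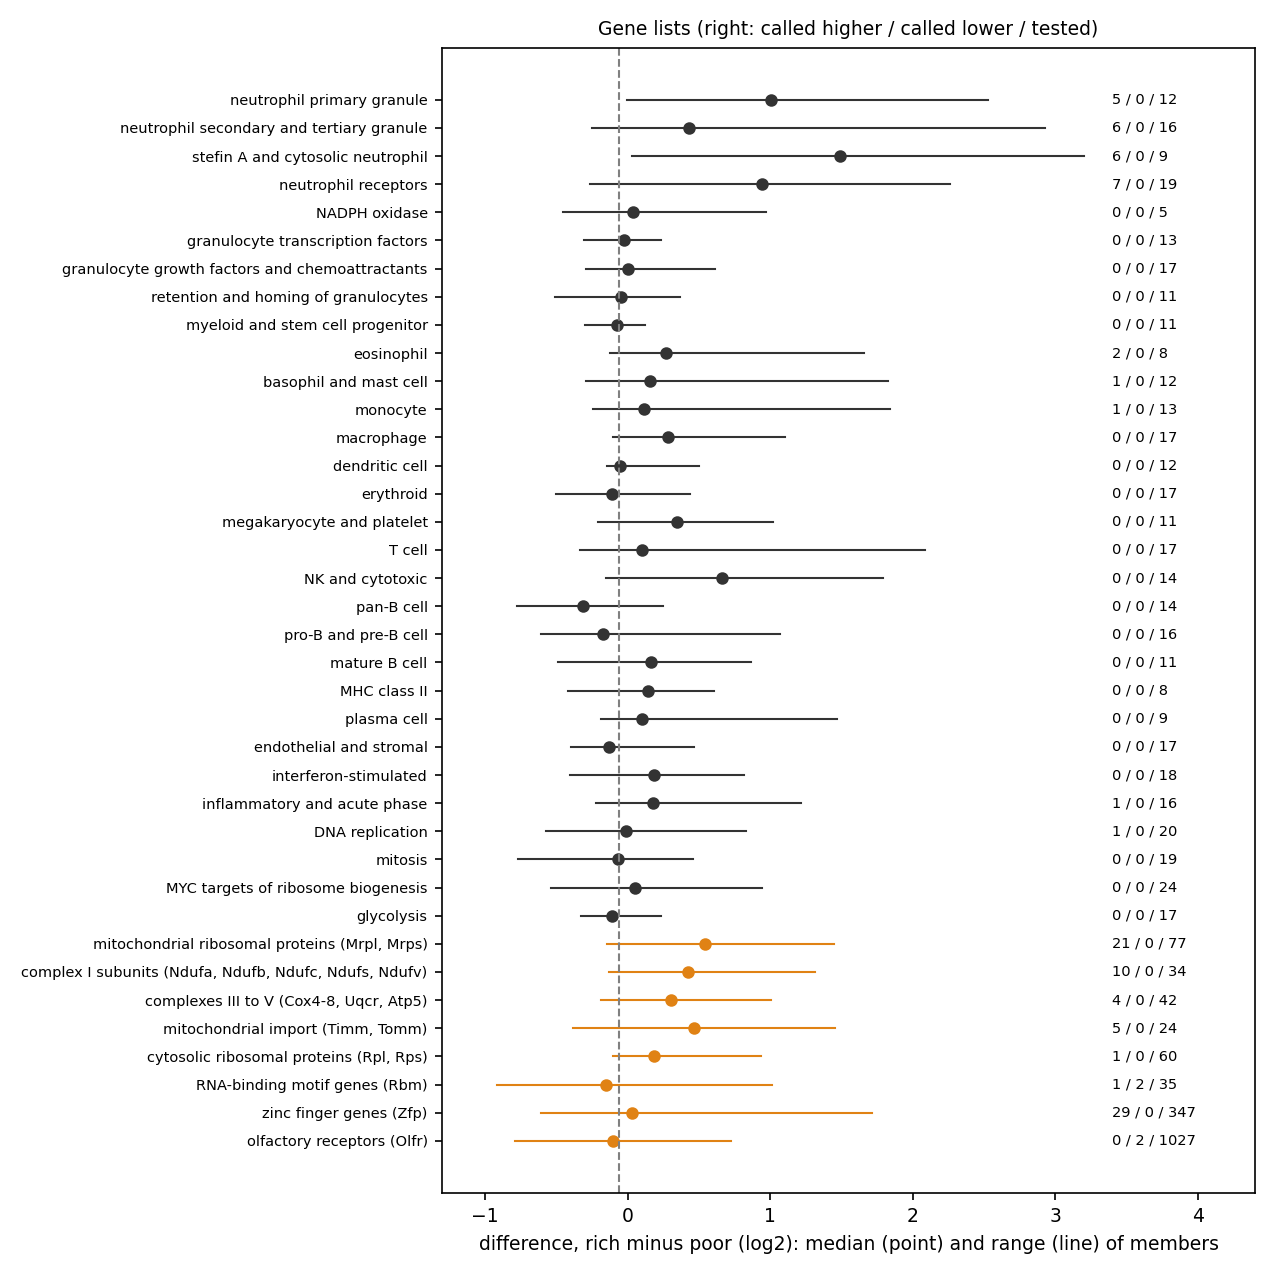
Median (point) and range (line) of the log2 difference, rich minus poor, over the tested members of each gene list, with counts called higher, called lower and tested on the right. The dashed line is the median of all genes, -0.06; black marks written lists and orange marks families taken by symbol after values were seen.

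Most of the called genes stood in none of the lists, which are short and do not hold every gene that neutrophils or other myeloid cells express. Of the 584 higher genes, 560 stood outside the 4 neutrophil lists and 555 in no list at all. Their leading members by p encode proteins of many compartments. Pstk, which makes selenocysteine transfer RNA, had 8.22, 8.70 and 9.26 in rich and 6.58, 7.25 and 7.63 in poor tumours (difference 1.49, SE 0.20; adjusted p = 0.00879). Tefm, the mitochondrial transcription elongation factor, had 8.35, 8.55 and 9.26 against 6.76, 7.09 and 8.01 (2.82-fold; adjusted p = 0.00879). Sdhaf4, an assembly factor of succinate dehydrogenase, had 8.28, 8.61 and 8.91 against 6.48, 7.22 and 7.83 (2.62-fold; adjusted p = 0.00879). The groups did not overlap in these 3 genes, and each kept its call in all 12 refits that left out a tumour.

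The other leading members in no list each had an adjusted p of 0.00879, with every rich tumour above every poor one. They were Ttc30b (a component of intraflagellar transport, difference 1.46), Tfec (an MITF-family transcription factor of myeloid cells, 1.26), Cnih4 (a cargo receptor of the secretory pathway, 1.26), Ccdc90b (a mitochondrial membrane protein, 1.19), Maip1 (a mitochondrial matrix protein, 1.18), Vamp7 (a vesicle fusion protein, 1.17), Smim8 (1.08), Zfp788 (0.97) and Zfp868 (0.76). Rgs18 had 7.99, 8.80 and 9.65 against 5.13, 6.28 and 8.14, which overlap (difference 2.33; adjusted p = 0.0188), and Cldn10, a tight junction protein, had 5.97, 7.04 and 8.70 against 4.80, 5.22 and 5.51 (difference 1.95; adjusted p = 0.0166). Rgs18 lost its call without KO 9 (adjusted p = 0.0561) or KO 3.

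Genes of mitochondrial translation and respiration recurred among the calls, and the following families were taken by gene symbol after values were seen. A family symbol does not show that a product is part of the named complex. Of 77 mitochondrial ribosomal protein genes (Mrpl and Mrps), 21 were higher (27.3%, against 2.93% of all genes tested) and 0 lower, with a median difference of 0.55. A positive difference was found in 74 of the 77, against 7602 of all 19933 genes tested. In a fit of genes above the median level only, 736 of 9966 were called higher. Mrpl50 had 9.28, 9.63 and 10.12 in rich and 7.75, 8.10 and 9.32 in poor tumours (difference 1.45; adjusted p = 0.0113), an overlap made by KO 7. Mrpl1 had 8.29, 8.56 and 9.20 against 7.06, 7.41 and 8.13 (difference 1.23, adjusted p = 0.00962). Mrps36, counted here by its symbol alone, had 8.25, 8.40 and 8.70 against 6.56, 7.11 and 7.93 (difference 1.24, adjusted p = 0.0132).

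Of 34 genes with complex I symbols (Ndufa, Ndufb, Ndufc, Ndufs and Ndufv) 10 were higher (29.4%), with a median of 0.43. Ndufa7 led them (difference 1.32, adjusted p = 0.0131), and Ndufa4 was counted among them by its symbol alone. Of 42 genes of complexes III to V 4 were higher (9.52%, median 0.30), among them Uqcr10 (1.01). Of 24 import genes 5 were higher (20.8%, median 0.47), with Tomm5 (1.45) and Tomm20 (1.13) of the outer membrane translocase leading. Cytosolic ribosomal proteins gave 1 of 60 (median 0.18). Under quantile normalization 9 of 77 mitochondrial ribosomal genes were called (median 0.33) and 4 of 34 complex I genes (median 0.21). Single tumours moved these counts. Mitochondrial ribosomal genes numbered 6 called without KO 9 or WT 9, 7 without KO 3, 8 without KO 4, 9 without WT 5, 11 without WT 2, 33 without WT 3 and 40 without KO 7. Complex I genes numbered 2 without WT 9, 3 without KO 9 or KO 3, 4 without KO 4, 5 without WT 5, 6 without KO 5 or WT 2 and 17 without WT 3. For complexes III to V the count was 0 without KO 9, WT 9 or KO 3, 1 without WT 4, WT 5, KO 5, KO 4 or WT 2, 2 without WT 7, 9 without WT 3 and 10 without KO 7. Import genes numbered 2 without KO 9 or WT 9 and 3 without KO 3 or KO 4. The cytosolic count ran from 0 (without WT 5, KO 9, WT 9, KO 5, KO 3, KO 4 or WT 2) to 4 (without KO 7). The family medians moved less, from 0.50 to 0.61 for mitochondrial ribosomal and from 0.37 to 0.48 for complex I genes.

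**Figure D4:**
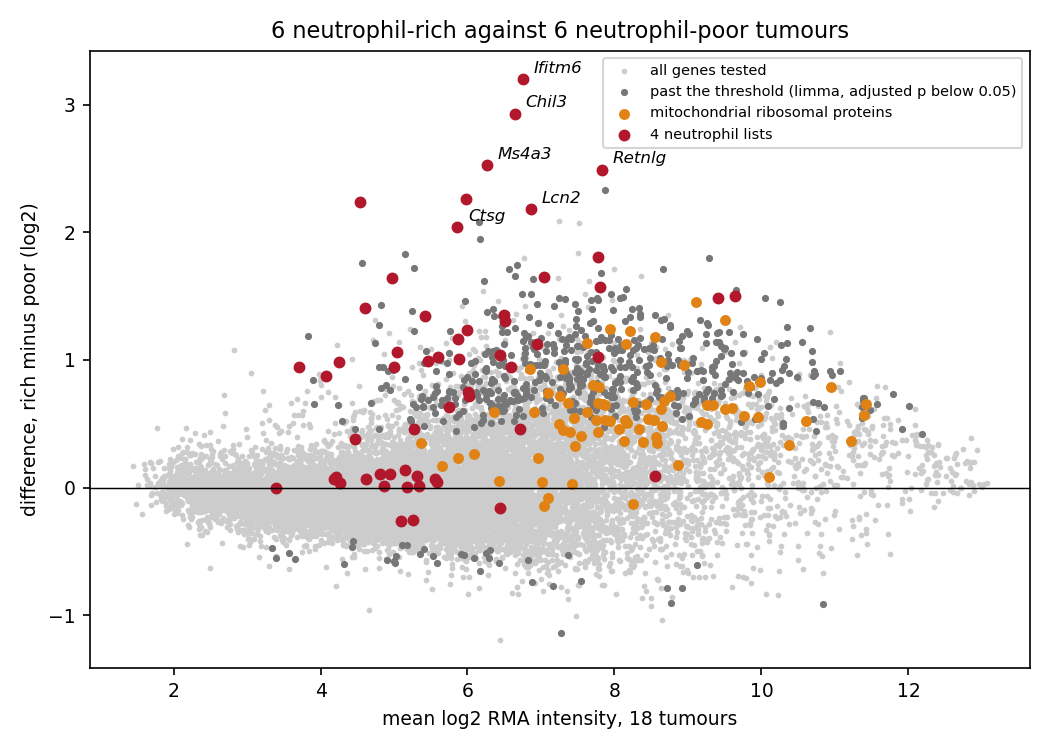
Log2 difference, rich minus poor, against mean log2 RMA intensity over 18 tumours for each gene tested; dark points passed limma's adjusted threshold, red points are the 4 neutrophil lists and orange points mitochondrial ribosomal proteins. Ifitm6 stands highest at 3.20, and the mitochondrial ribosomal genes lie mostly above 0 at middle to high intensity.

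The fit did not use the tumours in between, and their place differed between the called neutrophil genes and the higher genes as a whole. With the poor mean set to 0 and the rich mean to 1, the mean of the 6 tumours in between lay at a median of 0.28 for the called neutrophil list genes, 0.70 for the called mitochondrial ribosomal genes, 0.65 for the called complex I genes and 0.67 for all higher genes. Both mitochondrial families thus lay near the value of all higher genes. The score itself lay in between in these tumours by the choice of groups. By tumour, the mean of the 77 mitochondrial ribosomal genes was 8.27 to 8.85 in rich tumours and 8.35 to 8.59 in 5 of the 6 tumours in between. It was 7.73 in the remaining one, WT 1, and 7.61 to 8.05 in 5 of the 6 poor tumours. KO 7, the poor tumour of highest score, had 8.36, inside the rich range. The 2 tumours of highest neutrophil score, WT 4 and WT 5, had the lowest mitochondrial ribosomal means of the rich group, 8.27 and 8.37. Neutrophil and mitochondrial ribosomal levels therefore did not rank the rich tumours alike.

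**Figure D5:**
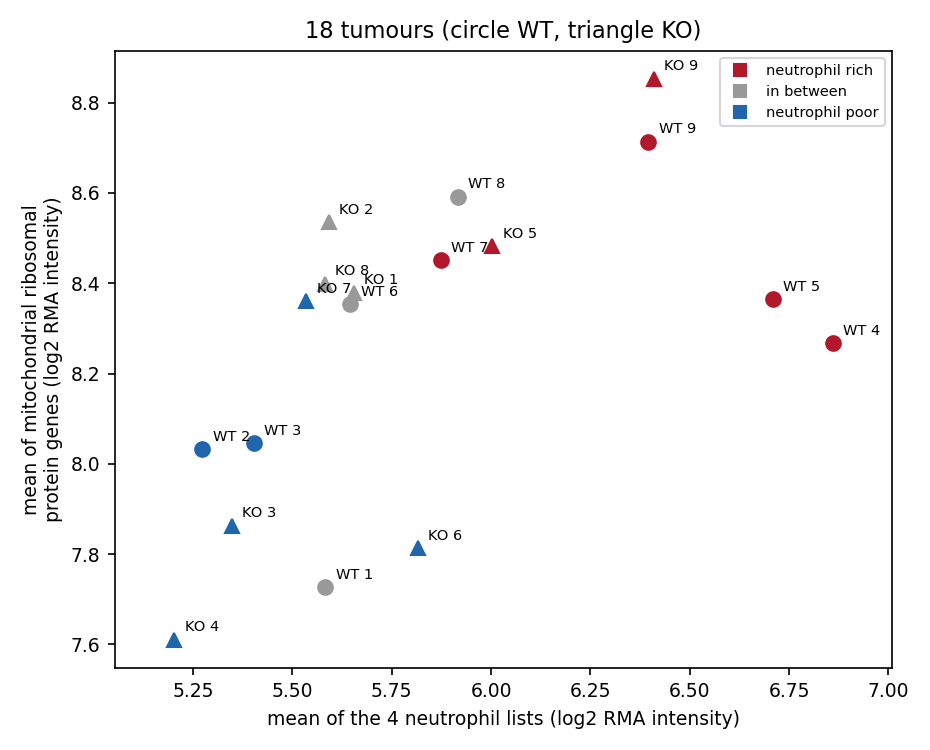
Mean log2 RMA intensity of 77 mitochondrial ribosomal protein genes against that of the 56 genes of the 4 neutrophil lists in 18 tumours (circles WT, triangles KO; red rich, grey in between, blue poor). The blue point KO 7 and every grey point except WT 1 stand level with the red points on the vertical axis, whereas the grey point WT 1 stands with the other blue ones.

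The called genes also shared features that the score did not use. The median over the 584 higher genes of the mean level in 18 tumours was 7.62 against 5.39 over all genes, and 548 of the 584 lay above the median gene. Their median genomic span was 13760 bases, against 17709 over all tested genes with a span. The array medians given above ran higher in poor than in rich tumours, with overlap. WT 3 and KO 4, the arrays of lowest correlation, were both in the poor group. In the other poor tumours the correlation was 0.9635 to 0.973, against 0.9653 to 0.9755 in rich tumours. The part of RNA quality, signal level or array quality in these differences was not tested. Without WT 3 and KO 4, an alternative chosen after seeing the data, 336 genes were higher, 270 of them shared with the 584. In that comparison 17 of 77 mitochondrial ribosomal genes were called, with a median difference of 0.50.

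The 36 lower genes were fewer and smaller in change, and 0 of them stood in a list. Of these 1 fell at least 2-fold, the unannotated Gm15455, by 1.14 on the log2 scale. Rbm25, a splicing regulator, had 9.72, 10.30 and 10.79 in rich and 10.56, 11.24 and 11.62 in poor tumours (difference -0.91, SE 0.20; adjusted p = 0.0269). Srrm2, a scaffold of nuclear speckles, had 7.88, 8.16 and 8.77 against 8.39, 9.23 and 9.71 (difference -0.91, SE 0.22; adjusted p = 0.0378). Groups overlapped in both genes, and of the tumours in between KO 8, KO 1, WT 1 and KO 2 stood at the poor level of Rbm25 while WT 8 and WT 6 stood at the rich level.

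Further nuclear genes among the lower were Rbm33 (an RNA-binding protein, -0.79), Hnrnpul2 (-0.79), Arid1a (a subunit of the BAF remodelling complex, -0.77), Alkbh5 (an RNA demethylase, -0.65) and Top1 (DNA topoisomerase I, -0.61). The remaining named ones were Ppp1r9b (-0.74), Olfr1174 (-0.73), Ceacam19 (-0.60), Gpr4 (a proton-sensing receptor, -0.59), Diaph1 (a formin, -0.59), Angpt2 (a vascular ligand, -0.58), Slc5a3 (an inositol transporter, -0.57), Gsk3a (a kinase, -0.57), Fbxl14 (-0.53), Ifi44l (-0.52) and Stim2 (a calcium sensor, -0.48). Of the 35 Rbm genes 1 was higher (Rbm7, 1.01) and 2 lower, with a median of -0.15, against 2.93% higher and 0.181% lower of all genes tested. Ceacam19, at 3.83, 4.06 and 4.24 against 4.497, 4.66 and 4.86 (adjusted p = 0.0131), was the single lower gene that passed in all 12 refits leaving out a tumour. It was dim, with a mean level at percentile 20.8 of genes. Ifi44l, Slc5a3 and Angpt2 were dim too, at percentiles 9.7, 35.5 and 38.2, and the other named lower genes lay above the median gene. For Srrm2 the adjusted p rose to 0.0999 without WT 9 and for Rbm25 to 0.0733 without KO 3.

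Zinc finger genes of the Zfp family were higher in 29 of 347 (8.36%, against 2.93% of all genes tested) and lower in 0 (against 0.181%). Their median difference was 0.03. They were led by Zfp931 at 5.54, 5.89 and 6.70 against 2.80, 4.41 and 5.09 (difference 1.72, adjusted p = 0.0184). The Zfp count was 4 without KO 9, 6 without KO 3 or KO 4, 7 without WT 9, 10 without WT 5, 11 without KO 5, 14 without WT 2, 47 without KO 6 and 15 without both WT 3 and KO 4, and Zfp931 lost its call without KO 9 (adjusted p = 0.055). Olfactory receptor genes gave 0 higher and 2 lower of 1027, with a median of -0.10. Over all genes tested 36 of 19933 were lower, a share close to that of this family.

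Genotype was compared within the same contrast. The relation of each gene to the score, as a continuous value over all 18 tumours, was compared between WT and KO tumours by an interaction term. That gave 0 called genes of 19933 (0.0%; limma, smallest adjusted p 0.73), with 1338 at an unadjusted p below 0.05. Prdm11 itself differed by -0.12 between rich and poor tumours (adjusted p = 0.685). Cd59a, a complement regulator, had 5.08, 7.44 and 7.80 in rich and 4.12, 5.17 and 7.81 in poor tumours, which overlap fully (difference 1.54, SE 0.57; adjusted p = 0.161). Its level went with genotype, at 6.75 to 7.81 in every WT tumour but WT 2 (5.78) and at 4.12 to 6.39 in KO tumours, and the rich group held more WT tumours than the poor. With genotype as a covariate the difference in Cd59a was 0.89 (adjusted p = 0.173), and without WT 3 and with no covariate it was 2.02 (adjusted p = 0.024).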

How the data were processed

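Total RNA of each of 18 splenic tumours was put on its own Affymetrix array. The authors deposited linear intensities per probe set, computed by RMA per the submitters' processing notes. For its version, reference and any scan batch the sources used here give nothing. Of 35556 probe sets, 21789 had 1 gene symbol, 1621 several and 12146 none in the platform annotation, and 21698 of the named ones were matched to a RefSeq gene table, which changed 0 symbols. Each of 19938 genes was represented by its probe set of highest mean over the 18 arrays.

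Intensities were transformed to log2 with no pseudocount and no filter on dim genes. Rich and poor tumours were compared with limma 3.58.1 in R 4.3.3 (lmFit and eBayes), with Benjamini-Hochberg adjustment over 19933 genes and a threshold of 0.05; differences are rich minus poor, on the log2 scale, and p-values in the text come from this fit unless stated. Steps were checked on simulated data. Precision is limited by the number of arrays.

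The groups, the 30 gene lists and the tests were chosen with earlier results of these data known. Named genes were the 12 of largest difference and the 12 of smallest p outside all lists in each direction, up to 4 called (otherwise 2) of each list, and 8 fixed names, with unannotated clones passed over. Other named genes, and the families by symbol, were chosen after values were seen. Alternatives covered the number of tumours per group, the score as a continuous term, genotype, T cell and erythroid covariates, scaling, probe set choice, a filter on dim genes, the variance model, array weights, a replicate block and left-out tumours.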

Additional observations from a re-analysis of the deposited data

Results flagged for a closer look

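Among 204 groups of 6 tumours examined, covering 102 named genes in rich and in poor tumours, 7 held a tumour standing apart from the other 5, with a gap, as a share of the group's range, above the critical value of Dixon's test; chance flags about 1 in 20 groups. In rich tumours this was Ccdc90b at 8.57 in KO 9, above the rest. In poor tumours KO 6 stood above the others in Slc5a3 (5.43), Cd5 (6.04), an antigen of T cells and some B cells, and Ciita (6.46), the activator of MHC class II genes. KO 6 also had the highest T cell list mean of all 18 tumours, 7.01. KO 7 stood below the other poor tumours in Stim2 (6.16), WT 3 above them in Prtn3 (5.82), inside the rich range, and KO 3 below them in Prg2 (5.45).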

How the results depend on the processing

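No called gene among the 54 named ones changed sign in any of 28 alternatives, and 22 of the 54 stayed past the threshold in 25 of them. The counts moved more. For higher and lower genes in turn, they were 971 and 115 with 5 tumours per group, 331 and 121 after quantile normalization, 877 and 361 with array weights, 336 and 211 without WT 3 and KO 4, and 0 and 0 for 9 against 9 tumours, for WT tumours alone and for KO tumours alone, the last pair resting on 6 tumours each. Lower genes alone moved to 87 with the score as a continuous term, 17 after median centring, 58 among genes above the median level and 21 with the erythroid list mean as a covariate. Leaving out 1 tumour gave 110 to 965 higher and 1 to 405 lower genes, the last without WT 3. The cause of these shifts was not tested. The interaction with genotype stayed at 0 calls throughout. The median of all genes shifted by -0.06 as deposited and by -0.00486 after centring.

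The labels' replicate numbers only name tumours: 4 of 9 same-numbered pairs correlated above 0.1 (range -0.235 to 0.484) and 2 of 18 tumours matched their own number best. With the replicate block as a random term (consensus correlation -0.101), 763 genes were higher and 78 lower.

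Only genes that were not called changed sign. Among WT tumours Cd93 was 0.02 and Cxcl1 0.118. Csf3 was 0.017 with the genotype covariate, 0.08 for 5 against 5, 0.015 with a continuous score, 0.099 among WT tumours and 0.01 after quantile normalization, and ran from -0.127 to 0.028 without 1 tumour. Gfi1 was 0.021 for 5 against 5, 0.026 for 9 against 9, 0.017 with a continuous score, 0.086 among WT tumours, 0.015 after quantile normalization and 0.023 after median centring, and ran from -0.068 to 0.015 without 1 tumour. Cxcl2 was -0.05 with the genotype covariate, -0.179 for 5 against 5, -0.003 for 9 against 9, -0.032 with a continuous score, -0.486 among KO tumours, -0.015 with the replicate block and -0.046 and -0.007 with the T cell and erythroid covariates, and ran from -0.14 to 0.151 without 1 tumour.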
